A study of Arabidopsis thaliana with 8 samples.

Results

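Brassinosteroids are steroid hormones that plants make from sterols and that promote cell elongation. Their synthesis runs through a chain of cytochrome P450 enzymes and a steroid reductase, and a further P450 inactivates the finished hormone. The hormone binds the receptor kinase BRI1 at the cell surface, which releases the transcription factors BZR1 and BES1 from inhibition by the kinase BIN2. Active BZR1 and BES1 are known to repress synthesis genes such as DWF4 and CPD, and BZR1 is known to act together with PIF4 in seedling growth. A fixed list of 10 genes was followed, chosen by locus from the 33602 loci of the count table: the synthesis genes DWF4 (AT3G50660), CPD (AT5G05690), DET2 (AT2G38050), ROT3 (AT4G36380), BR6OX1 (AT5G38970) and BR6OX2 (AT3G30180), the breakdown gene BAS1 (AT2G26710), the receptor gene BRI1 (AT4G39400), and BZR1 (AT1G75080) and BES1 (AT1G19350). The list was drawn up with earlier results of these data known. All 10 genes passed the filter on low counts, as did 19829 loci in all.

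The pif4 hybrid (C24 crossed with pif4-101, a line that is mutant in PIF4) and the Col hybrid (C24 crossed with Col) of Arabidopsis thaliana were compared. Both germinated at 22 °C under short days and were then kept at 27 °C or at 22 °C. Whole seedlings were pooled at ZT0, when the lights come on, 7 or 4 days after sowing. Each of the 8 conditions had 1 library, so 27 °C, day 7 and the pif4 hybrid were each set against 22 °C, day 4 and the Col hybrid across 4 matched pairs. No condition was repeated, so the p-values reflect only how these 8 libraries scatter about the fit. Both hybrids carry a C24 chromosome set, and so a PIF4 copy that did not come from pif4-101.

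Total counts lay between 1664128, in the Col hybrid at 22 °C on day 4, and 25440561, in the Col hybrid at 27 °C on day 7, and the 27 °C library was the deeper one in 3 of the 4 pairs. A locus with 3 counts stood at 2.15 CPM (counts scaled to library size by TMM factors) in the shallowest library and at 0.106 CPM in the deepest. PIF4 itself stood at 157.3, 186.3, 62.52 and 79.51 CPM in the pif4 hybrid at 27 °C on day 7, at 27 °C on day 4, at 22 °C on day 7 and at 22 °C on day 4. In the Col hybrid it stood at 187.2, 176.4, 72.78 and 97.3 CPM in the same order of conditions. Its log2 fold change between the hybrids was -0.16 (SE 0.11, edgeR adjusted p = 1), so the PIF4 transcript level did not separate them. Markers of green shoot and of root were read in every library. The 4 green-shoot markers summed to 5984 to 12160 CPM at 27 °C and 10650 to 31270 CPM at 22 °C, and 3 of them fell with warmth. The 5 root markers summed to 1677 to 2366 CPM at 27 °C and 1915 to 3495 CPM at 22 °C, and 1 of them fell. PYK10 made up most of each root sum, with 1645 to 2337 and 1812 to 3338 CPM. The root marker that fell was IRT1, with a log2 fold change of -3.39. The 3 seed markers summed to 0.265 to 17.5 CPM at 27 °C and 0.931 to 3.58 CPM at 22 °C, with CRU3 at 0 in 5 libraries. The part of these markers in the results below was not tested. In whole seedlings, fewer cells of a type and less RNA per cell cannot be told apart.

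The promoters of the 10 genes, taken as the 250 bases before the annotated gene start in the TAIR10.1 assembly (RefSeq annotation), were searched on both strands for CACGTG, the G-box that PIF proteins and also BZR1 bind, and for CGTGTG and CGTGCG, the brassinosteroid response elements of BZR1 and BES1. BZR1 alone of the 10 held a match. It has the G-box 85 to 80 bases before the start, and CGTGTG on the opposite strand at 178 to 173 and at 22 to 17 bases before it. Among 27443 promoters of this length, 6.49% held CACGTG and 6.71% held either response element. The BZR1 promoter (chr1:28185254-28185503, plus strand) is shown with these matches in capitals, beside that of CPD (chr5:1706949-1707198, minus strand), the gene with the highest level and the largest rise at 27 °C, which holds none of the 3 motifs in this window. A match is a run of letters, not a measured binding site. Bases farther upstream or inside the annotated gene were not searched, so a gene with no match here may hold these motifs elsewhere.
BZR1: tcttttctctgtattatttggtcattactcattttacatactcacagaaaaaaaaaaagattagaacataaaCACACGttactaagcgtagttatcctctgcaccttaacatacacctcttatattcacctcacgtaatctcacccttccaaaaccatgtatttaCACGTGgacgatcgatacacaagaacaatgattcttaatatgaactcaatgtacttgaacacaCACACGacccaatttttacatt
CPD: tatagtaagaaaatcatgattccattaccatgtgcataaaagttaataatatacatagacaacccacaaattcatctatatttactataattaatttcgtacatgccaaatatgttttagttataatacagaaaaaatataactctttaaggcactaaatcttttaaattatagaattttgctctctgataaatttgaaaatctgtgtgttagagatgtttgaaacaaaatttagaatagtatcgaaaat

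CPD, which encodes a P450 that acts on the steroid ring, was the most abundant of the 10 transcripts per length, and BR6OX1 the least. Levels between genes were compared as CPM per kb of merged exon over all 8 libraries (SD, n = 8). CPD averaged 248 ± 69.3 CPM per kb, BES1 54.7 ± 5.25, BRI1 41.5 ± 16.1, BR6OX2 23.96 ± 2.51 and DWF4 21.1 ± 4.65. BZR1 averaged 18.3 ± 4.81 CPM per kb, ROT3 15.0 ± 1.62, DET2 12.3 ± 2.72, BAS1 11.8 ± 1.67 and BR6OX1 4.74 ± 0.321. CPD stood above BES1, ROT3 above DET2, and BAS1 above BR6OX1 in 8 of 8 libraries. The other neighbours in this order exchanged places in at least 1 library. DWF4 stood above BZR1 in 4 of 8, which were the libraries of day 7, and below it in those of day 4. DET2 stood above BAS1 in 4 of 8. The SD here spans 8 different conditions, so it is not an error of measurement. BRI1 had the widest span between its highest and lowest library, 1.79 on the log2 CPM scale.

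At 27 °C against 22 °C, 4 of the 10 genes rose and 0 fell: the synthesis genes CPD and DET2, the receptor gene BRI1 and the transcription factor gene BZR1. Their rises were between 0.58 and 0.75 on the log2 scale and had the same sign in 4 of 4 pairs. Across all 19829 genes tested, 19.5% rose and 19.2% fell. The median log2 fold change was 0.20 over the 10 genes and 0.01 over all genes.

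CPD stood at 604.8 and 552.6 CPM in the pif4 hybrid on days 7 and 4 and at 655.1 and 590.4 CPM in the Col hybrid on days 7 and 4 at 27 °C. At 22 °C the same conditions gave 352.0, 332.6, 361.2 and 383.5 CPM. Every 27 °C library lay above every 22 °C library, and the log2 fold change was 0.75 (SE 0.12, edgeR adjusted p = 0.000602). It was positive in every pair, from 0.62 in the Col hybrid on day 4 to 0.86 in the Col hybrid on day 7.

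DET2, the steroid reductase of the pathway, stood at 16.8 and 14.6 CPM in the pif4 hybrid on days 7 and 4 and at 17.5 and 14.7 CPM in the Col hybrid on days 7 and 4 at 27 °C. At 22 °C it stood at 10.5, 9.78, 10.4 and 14.3 CPM in the same conditions. The 27 °C and 22 °C libraries did not overlap, though the Col pair on day 4 differed by only 0.04 on the log2 scale and its 22 °C value rests on 20 counts. The log2 fold change was 0.59 (SE 0.13, edgeR adjusted p = 0.00392). With all libraries thinned to the depth of the shallowest it was 0.39, with an adjusted p of 0.247.

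The other 4 synthesis genes did not pass the test. ROT3, a P450 that hydroxylates the side chain, lay between 35.8 and 41.5 CPM at 27 °C and between 30.4 and 35.3 CPM at 22 °C. These ranges did not overlap, and the log2 fold change was 0.25 (SE 0.10, edgeR adjusted p = 0.067, higher in 4 of 4 pairs). Without the Col hybrid library of 27 °C and day 4, ROT3 was past the threshold, with 0.26 and an adjusted p of 0.0253. DWF4, a P450 of the early side-chain step that is regarded as rate-limiting, had a log2 fold change of 0.07 (95% interval -0.14 to 0.29) and overlapping ranges, 48.7 to 71.6 CPM at 27 °C and 44.4 to 76.3 CPM at 22 °C. BR6OX1 and BR6OX2 encode the oxidases of the last steps. BR6OX1 lay between 8.79 and 10.8 CPM at 27 °C and between 9.30 and 10.2 CPM at 22 °C, BR6OX2 between 43.5 and 53.0 CPM at 27 °C and between 39.4 and 50.0 CPM at 22 °C. Their log2 fold changes were -0.04 and 0.10.

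BAS1, the P450 that inactivates the hormone by hydroxylation, lay between 23.0 and 32.8 CPM at 27 °C and between 21.7 and 28.9 CPM at 22 °C. Its log2 fold change of 0.15 (SE 0.10, edgeR adjusted p = 0.252) was positive in 4 of 4 pairs and did not pass the test.

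BRI1, the hormone receptor, stood at 152.0 and 291.6 CPM in the pif4 hybrid on days 7 and 4 and at 191.9 and 241.1 CPM in the Col hybrid on days 7 and 4 at 27 °C. At 22 °C it stood at 83.96, 174.6, 97.97 and 219.6 CPM in the same conditions. Day 4 was high at both temperatures and the ranges overlapped, but 27 °C was the higher one in 4 of 4 pairs. The log2 fold change was 0.69 (SE 0.14, edgeR adjusted p = 0.00205). BRI1 has a long transcript, and its rise was smaller, 0.37, with an offset for transcript length.

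BZR1 stood at 34.9 and 50.7 CPM in the pif4 hybrid on days 7 and 4 and at 39.5 and 41.7 CPM in the Col hybrid on days 7 and 4 at 27 °C, against 23.3, 32.7, 23.0 and 36.5 CPM at 22 °C. The rise was seen in 4 of 4 pairs, with overlapping ranges and a log2 fold change of 0.58 (SE 0.11, edgeR adjusted p = 0.00163). Its close homolog BES1 did not pass the test. BES1 lay between 117.1 and 145.9 CPM at 27 °C and between 122.9 and 150.2 CPM at 22 °C, with a log2 fold change of -0.07 (95% interval -0.28 to 0.15).

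**Figure D1:**
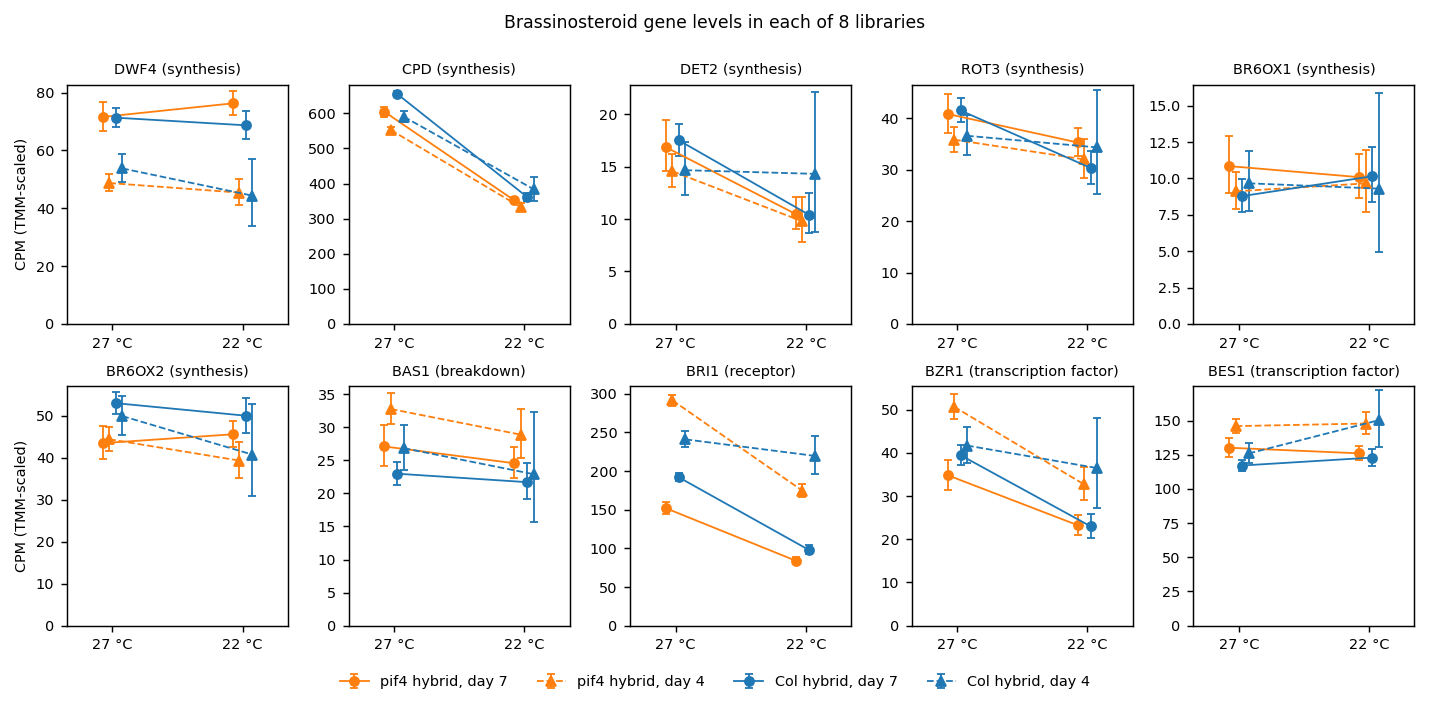
CPM (TMM-scaled, axes from 0) of the 10 genes in each of the 8 libraries, with 27 °C left of 22 °C and a line joining the pair of 1 hybrid and day. Bars are 95% Poisson intervals of the counts, which cover counting error only. CPD at 27 °C (552.6 to 655.1 CPM) lies above CPD at 22 °C (332.6 to 383.5 CPM) in every pair, while DWF4 separates by day.

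Ratios between genes of the same library do not depend on a scale factor shared by the whole library. A trend with exon length, given below, can still shift them where the genes differ in length. Exon lengths were 1924 and 2437 bases for BZR1 and BES1, and 1929 and 2844 bases for CPD and DWF4. For BR6OX2 and BR6OX1 they were 1913 and 2047 bases. The ratios carry no offset for length. They are descriptions here, with no test. The BZR1 to BES1 ratio of CPM per kb was 0.339 and 0.44 in the pif4 hybrid on days 7 and 4 and 0.427 and 0.42 in the Col hybrid on days 7 and 4 at 27 °C. At 22 °C it was 0.234, 0.28, 0.237 and 0.308. BES1 transcript was thus the more abundant of these homologs in every library, by a smaller factor in each of the 27 °C libraries than in any 22 °C library. The CPD to DWF4 ratio was 12.5, 16.7, 13.5 and 16.2 at 27 °C and 6.81, 10.8, 7.75 and 12.7 at 22 °C in the same conditions. It was higher at 27 °C in each of the 4 pairs, and lower on day 7 than on day 4 at both temperatures. The BR6OX2 to BR6OX1 ratio lay between 4.29 and 6.46 at 27 °C and between 4.36 and 5.28 at 22 °C, with no separation.

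**Figure D2:**
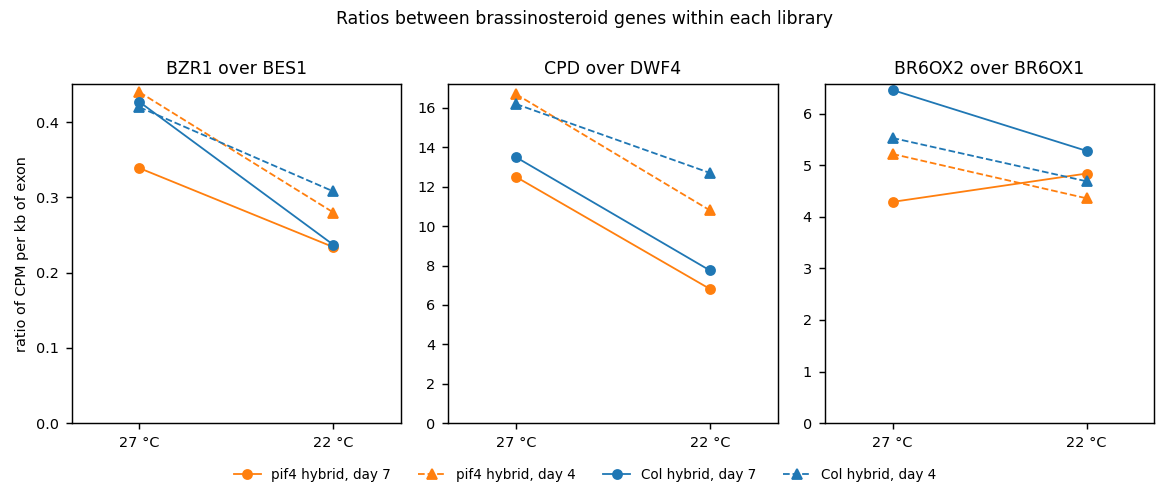
Ratio of the CPM per kb of exon of 1 gene to that of another within each of the 8 libraries, axes from 0, with 27 °C left of 22 °C. The BZR1 to BES1 ratio is 0.339 to 0.44 at 27 °C and 0.234 to 0.308 at 22 °C, and the CPD to DWF4 ratio is higher at 27 °C in each of the 4 pairs, 12.5 to 16.7 against 6.81 to 12.7 at 22 °C.

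Some of these genes share exon bases with a neighbour on the opposite strand, and counts of such bases are uncertain. Per the labels, stranded and unstranded kits were in use, and the kit of each library is not given. BES1 shares 818 of its 2437 exon bases with AT1G19360, which averaged 49.5 CPM and had a log2 fold change of 0.06 (SE 0.10, edgeR adjusted p = 0.695) with temperature. BZR1 shares 282 of its 1924 bases with AT1G75090, which averaged 2.33 CPM and did not pass the test, and 220 bases with the long non-coding RNA AT1G09523. CPD shares 20 bases with AT5G05680, which averaged 20.9 CPM and rose with temperature, by 0.41 (SE 0.14, edgeR adjusted p = 0.0382). The overlap was 83 bases for ROT3 and 35 for DET2, and none was annotated for DWF4, BR6OX1, BR6OX2, BAS1 and BRI1.

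Between day 7 and day 4, DWF4 rose while BRI1 and BZR1 fell, and the other 7 genes did not pass the test. The rise of DWF4 and the fall of BRI1 had 1 sign in 4 of 4 pairs, and so had the fall of BZR1. Across all genes 24.8% rose and 24% fell with age, so 3 calls among 10 genes are no more than this background. The median log2 fold change was 0.07 over the 10 genes and 0.00 over all genes. Tissue markers moved with age as well: 4 of the 5 root markers and 1 of the 4 green-shoot markers fell, and the 1 seed marker that was tested did not pass. The root markers summed to 1677 to 2366 CPM on day 7 and 1839 to 3495 CPM on day 4. PYK10, the root marker that did not pass, made up most of each sum, with 1645 to 2337 and 1796 to 3338 CPM. The log2 fold changes of the root markers that fell were -2.04 for COBL9, -1.59 for EXPA7, -0.72 for IRT1 and -0.50 for CASP1. The green-shoot markers summed to 5984 to 13430 CPM on day 7 and 7875 to 31270 CPM on day 4, the seed markers to 0.265 to 2.88 CPM on day 7 and 0.931 to 17.5 CPM on day 4. Their part in the age results was not tested.

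DWF4 stood at 71.6 and 76.3 CPM in the pif4 hybrid at 27 °C and 22 °C and at 71.3 and 68.7 CPM in the Col hybrid at 27 °C and 22 °C on day 7. On day 4 it stood at 48.7, 45.4, 53.8 and 44.4 CPM in the same conditions. Every day 7 library lay above every day 4 library, and the log2 fold change was 0.58 (SE 0.10, edgeR adjusted p = 0.000565). BRI1 fell by 0.87 (SE 0.14, edgeR adjusted p = 0.000331), with ranges of 83.96 to 191.9 CPM on day 7 and 174.6 to 291.6 CPM on day 4 that overlapped. Its smallest difference was in the Col hybrid at 27 °C, -0.33, and the largest in the Col hybrid at 22 °C, -1.17. BZR1 fell by 0.42 (SE 0.11, edgeR adjusted p = 0.00781), between 23.0 and 39.5 CPM on day 7 and between 32.7 and 50.7 CPM on day 4. Without the pif4 hybrid library of 27 °C and day 7 the BZR1 value was -0.39, with an adjusted p of 0.0516. After thinning to the shallowest depth it was -0.41, with an adjusted p of 0.0634.

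The remaining synthesis genes had small age differences: log2 fold changes of 0.07 for CPD, 0.11 for DET2, 0.11 for ROT3, 0.07 for BR6OX1 and 0.12 for BR6OX2. BAS1 and BES1 were lower on day 7 in 4 of 4 pairs, with -0.22 (edgeR adjusted p = 0.0794) and -0.19 (edgeR adjusted p = 0.123). BES1 was past the threshold without the Col hybrid library of 27 °C and day 4, with -0.24 and an adjusted p of 0.038.

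**Figure D3:**
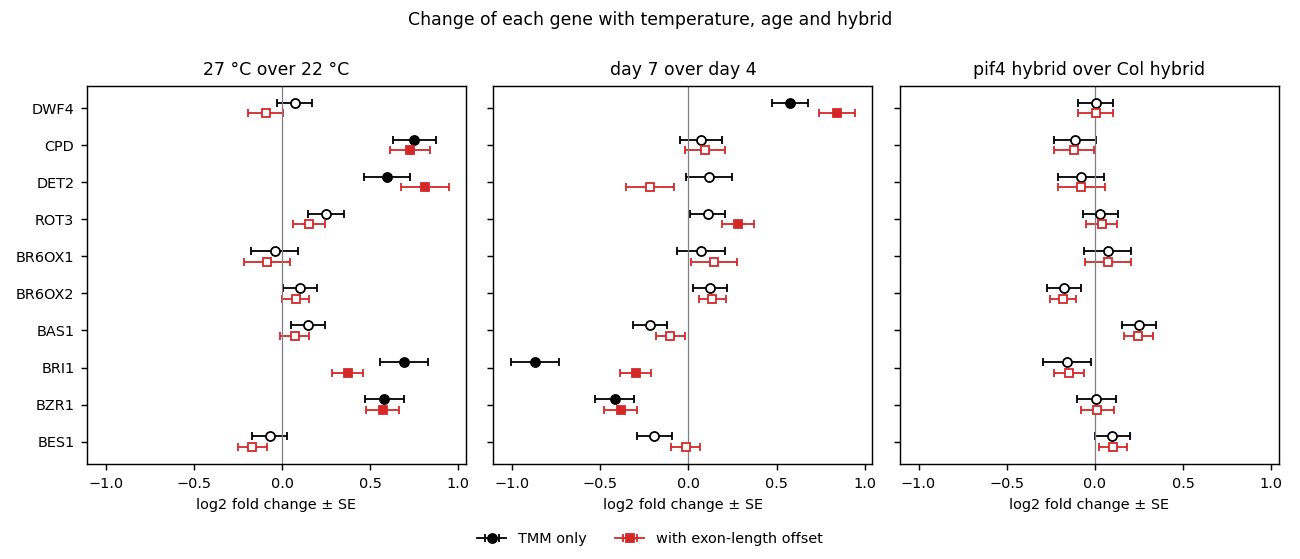
Log2 fold change with its SE for each of the 10 genes by temperature, age and hybrid, from the TMM-scaled fit (black) and with an added offset for exon length (red). Filled symbols passed an adjusted p of 0.05 over all genes tested. CPD, DET2, BRI1 and BZR1 are filled for temperature in both fits, and no symbol is filled for the hybrids.

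Across all genes, the fold changes with temperature and with age varied with annotated exon length. Genes with over 4 kb of exon had a median log2 fold change of 0.39 with warmth and -0.63 with age, while genes under 1 kb had -0.28 and 0.53. Averaged over both days and both temperatures, the hybrids showed no such gradient, with medians between -0.01 and 0.02 in every length class. The interaction terms did vary with length. Genes under 1 kb and over 4 kb had medians of 0.37 and -0.37 for genotype by age. The medians were -0.11 and 0.15 for genotype by temperature, and -0.155 and 0.308 for age by temperature. The 905 genes over 4 kb deviated from their own mean by a median of -0.17, 0.63, 0.05 and 0.24 on the log2 scale at 27 °C, in the pif4 hybrid on days 7 and 4 and the Col hybrid on days 7 and 4. At 22 °C the same conditions gave -0.64, 0.18, -0.53 and 0.30. The library with the highest value, the pif4 hybrid at 27 °C on day 4, also had the most BRI1, and the one with the lowest, the pif4 hybrid at 22 °C on day 7, the least. What sets long and short genes apart in these libraries was not tested.

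BRI1 has 4375 bases of exon. The 566 genes within 10% of that length had a median of 0.34 with temperature and -0.54 with age, where BRI1 itself had 0.69 and -0.87. With an offset for exon length in each library, BRI1 still rose with warmth, by 0.37 (SE 0.09, edgeR adjusted p = 0.0047), and still fell with age, with -0.30 (SE 0.09, edgeR adjusted p = 0.0156). CPD and BZR1, at 1929 and 1924 bases, lie where the median of all genes is near 0, and DET2, at 1101 bases, lies among genes that had a median of -0.22 with warmth. Under the offset CPD rose by 0.73, DET2 by 0.81 and BZR1 by 0.57. The background then was 19.1% risen and 20.2% fallen with temperature, and 19.9% risen and 20% fallen with age. DWF4, at 2844 bases, lies among genes with a median of -0.28 with age, and its rise with age was 0.84 (SE 0.10, edgeR adjusted p = 5.03e-05) under the offset. Its temperature value turned to -0.09 and remained short of the threshold. ROT3 passed the threshold for age under the offset, with 0.28 (SE 0.09, edgeR adjusted p = 0.0223), and DET2 turned to -0.22 without passing. The offset was chosen after seeing the data.

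**Figure D4:**
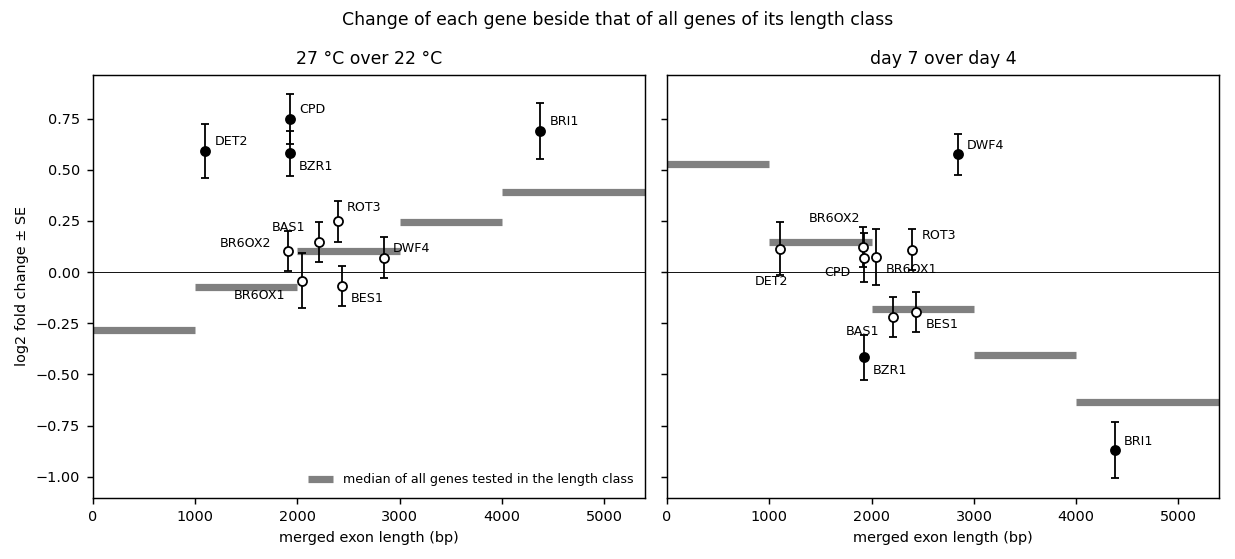
Log2 fold change with its SE against merged exon length for the 10 genes, by temperature and by age, with the median of all tested genes in each of 5 length classes in grey (the last class holds all genes over 4 kb and is drawn to the edge). Filled symbols passed an adjusted p of 0.05. BRI1 lies on the side of its length class in both panels, whereas DET2 and CPD lie away from theirs for temperature and DWF4 away from its class for age.

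Between the pif4 hybrid and the Col hybrid, 0 of the 10 genes passed the test by edgeR, and 0 by DESeq2. Over all genes 0.00504% passed, which is 1 gene, and this count lay between 0 and 13 when each library was left out in turn. At an unadjusted p under 0.05 there was 1 gene of the 10, BAS1, beside 795 of all 19829 genes. BAS1 stood at 27.1 and 24.6 CPM in the pif4 hybrid at 27 °C and 22 °C on day 7, and at 32.8 and 28.9 CPM on day 4. In the Col hybrid it stood at 23.0, 21.7, 26.8 and 22.9 CPM in the same conditions. The pif4 hybrid was the higher one in 4 of 4 pairs, with a log2 fold change of 0.25 (95% interval 0.04 to 0.46, edgeR adjusted p = 1). CPD and BR6OX2 were lower there in 4 of 4 pairs, with -0.11 (95% interval -0.37 to 0.15) and -0.17 (95% interval -0.38 to 0.03). The intervals of all 10 genes lay within -0.46 and 0.46.

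No gene of the 10 passed an interaction test. For age by temperature 0.267% of all genes passed, for genotype by temperature 0% and for genotype by age 0.0908%. By DESeq2 the count among the 10 was also 0 in each. None had an unadjusted edgeR p under 0.05, beside 1791, 188 and 1686 of all 19829 genes in the same order. Without the length offset, the largest term was that of BRI1 for age by temperature, 0.46 (95% interval -0.07 to 0.98, edgeR adjusted p = 0.612). The 566 genes within 10% of its length had a median of 0.25 for age by temperature. With the offset, DET2 had 0.392 for age by temperature and DWF4 0.394 for genotype by age, both short of the threshold. The BRI1 term for age by temperature was then 0.20 (edgeR adjusted p = 0.685). The temperature difference of BRI1 was 0.14 in the Col hybrid on day 4, beside 0.86, 0.74 and 0.97 in the pif4 hybrid on day 7, the pif4 hybrid on day 4 and the Col hybrid on day 7. Without the pif4 hybrid library of 27 °C and day 4 this term was 0.76 (edgeR adjusted p = 0.0273), in a fit where 1780 genes passed in all against 53 with every library. The rise of CPD with warmth differed between the hybrids by 0.02 (95% interval -0.57 to 0.60) and between the days by 0.14 (95% interval -0.41 to 0.69).

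A wider list of 48 further pathway genes, of which 44 passed the filter, was read by role. This list too was chosen with earlier results of these data known. With warmth 15 rose and 3 fell, at a median of 0.17, beside the background of 19.5% and 19.2%. The count of 18 was 8 without the Col hybrid library of 22 °C and day 7, 11 without the pif4 hybrid library of 22 °C and day 7, and 11 without that of 27 °C and day 7. The background fell too: without the Col hybrid library of 22 °C and day 7, 4246 of 19599 genes passed, against 7676 of 19829 with every library. Over all libraries left out in turn it was 4246 to 9827 genes. Transcription factors gave 6 rises and 2 falls among 10 tested, the kinase and phosphatase relay 4 rises among 6, and receptors and membrane proteins 3 rises among 8. Of the 10 sterol and brassinosteroid synthesis genes in this list, 0 rose and 1 fell. Inactivation had 1 rise among 5 and responsive genes 1 among 5.

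BEH4, a homolog of BZR1, rose by 0.88 (SE 0.11, edgeR adjusted p = 0.000112) with warmth, and BIM1, a partner of BES1, by 0.86 (SE 0.13, edgeR adjusted p = 0.000377). BEE1, a basic helix-loop-helix factor induced by the hormone, rose by 0.99 (SE 0.21, edgeR adjusted p = 0.00319). The phosphatase genes BSL1 and BSL3 rose by 0.52 and 0.50, and all 5 had 1 sign in 4 of 4 pairs. The falls were FK, a sterol reductase, with -0.50, the BZR1 homolog BEH3 with -0.63, and BEE2 with -0.35. After thinning to the shallowest depth FK had -0.25, with an adjusted p of 0.366, and BEE2 (0.0829) and BSL3 (0.104) also missed the threshold. With the library total as a covariate, BEH3, BEE2 and BSL3 missed it, with adjusted p of 0.0546, 0.0763 and 0.0556. BEH3 missed the threshold without the Col hybrid library of 22 °C and day 7 (edgeR adjusted p = 0.0861) or that of 27 °C and day 7 (0.0583). BEE2 did so without the Col hybrid library of 22 °C and day 7 (edgeR adjusted p = 0.0592), the pif4 hybrid library of 27 °C and day 4 (0.0597) or that of 22 °C and day 7 (0.0515). With the offset for exon length 12 rose and 5 fell, and the kinase and phosphatase relay had 1 rise in place of 4. BSL3, with 4053 bases of exon, then had 0.18 (edgeR adjusted p = 0.107), and the receptor homologs BRL1 and BRL3 had 0.47 and 0.07 and were no longer past the threshold, having been chosen for mention after their values were seen.

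With age, 6 of the 44 rose and 20 fell, at a median of -0.18, beside the background of 24.8% and 24% and the falls of 4 of 5 root markers and 1 of 4 green-shoot markers. Falls were found for 5 of 6 genes of the kinase and phosphatase relay, 4 of 8 receptors and membrane proteins, 4 of 10 synthesis genes, 3 of 10 transcription factors, 3 of 5 responsive genes and 1 of 5 inactivation genes. The receptor homolog BRL3 fell by 1.00 (SE 0.14, edgeR adjusted p = 0.000136), the phosphatase gene BSL2 by 0.85, BIM1 by 0.81, BEH4 by 0.71 and the inactivating P450 gene CYP72C1 by 0.62. The 5 rises with the smallest p were those of TCH4, which encodes a cell-wall xyloglucan enzyme, with 0.98 (SE 0.19, edgeR adjusted p = 0.00119), BEE3 with 0.46, BIM3 with 0.58, the sterol isomerase gene HYD1 with 0.30 and BEH1 with 0.28. The sixth was SAUR15, named after its values were seen, at 1.2 to 4.43 CPM on day 7 and 0 to 1.96 CPM on day 4 (edgeR adjusted p = 0.0421). With the library total as a covariate BIM3 and BEH1 missed the threshold, with adjusted p of 0.0577 and 0.0806, and after thinning BEE3 and BEH1 did, with 0.0703 and 0.525. HYD1 and BEH1 missed the threshold when any 1 of the 4 pif4 hybrid libraries was left out, with adjusted p from 0.0615 to 0.0961 and from 0.0704 to 0.117. With the offset for exon length 4 rose and 20 fell. BEE3, BIM3 and BEH1 were then short of the threshold, HYD1 turned to -0.02, and BRL3 and BSL2 fell by 0.46 and 0.32.

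**Figure D5:**
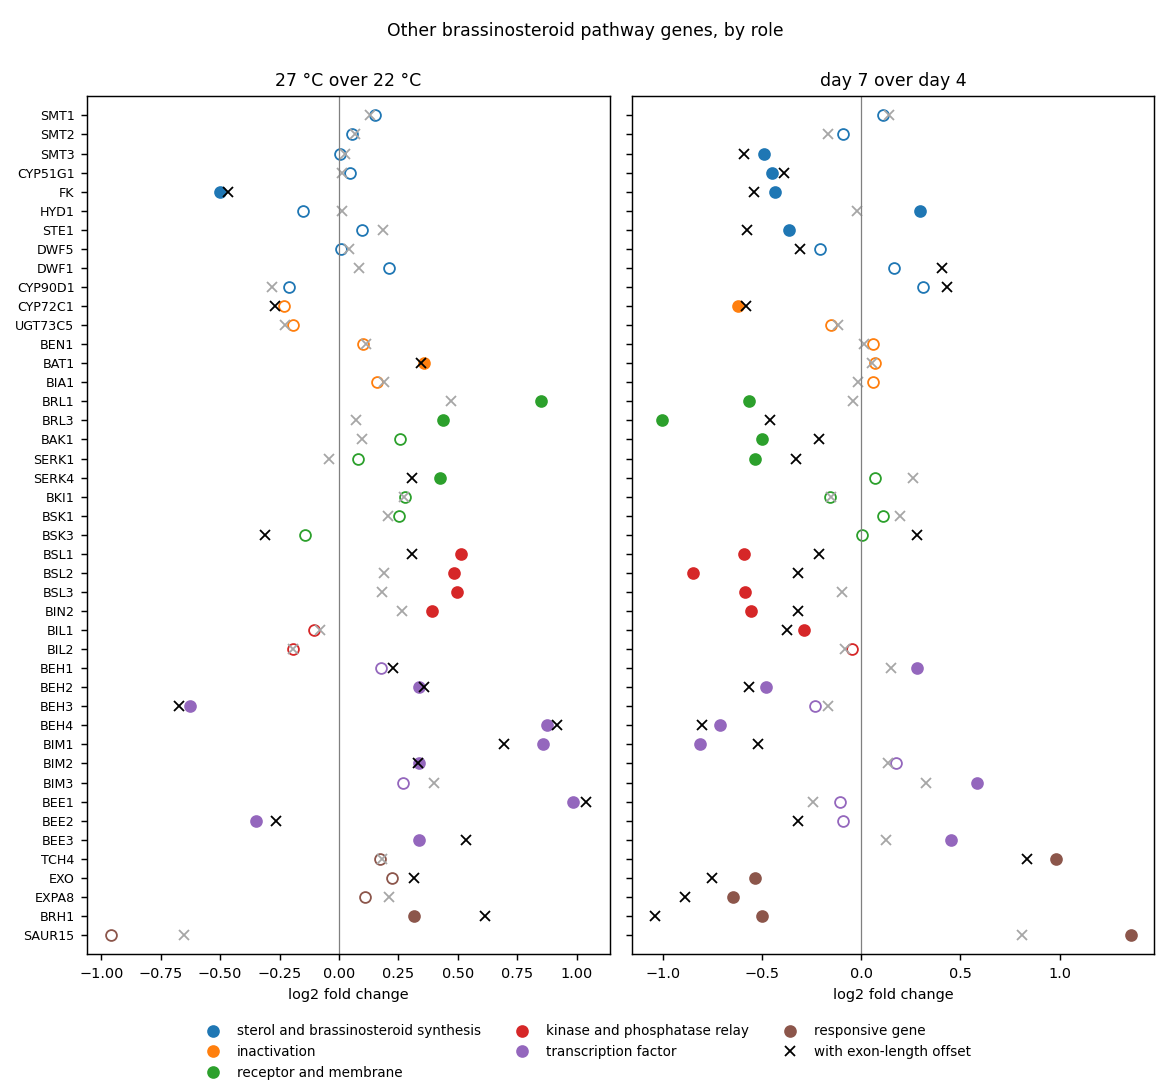
Log2 fold change of the 44 other pathway genes that passed the filter, by temperature and by age, coloured by role. Filled circles passed an adjusted p of 0.05 in the TMM-scaled fit, crosses give the value with the exon-length offset, and black crosses passed in that fit. With warmth 15 rose and 3 fell, and with age 6 rose and 20 fell.

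Between the hybrids 0 of the 44 passed by edgeR, with 6 at an unadjusted p under 0.05, beside 795 of all 19829 genes. For age by temperature TCH4 alone passed, for genotype by temperature and genotype by age 0 did. TCH4 stood at 35.6 and 23.8 CPM in the pif4 hybrid on days 7 and 4 and at 35.4 and 25.9 CPM in the Col hybrid on days 7 and 4 at 27 °C. At 22 °C it stood at 38.9, 12.6, 47.7 and 13.6 CPM. It was thus higher at 27 °C on day 4 and lower at 27 °C on day 7 in both hybrids, and the interaction term was -1.20 (SE 0.22, edgeR adjusted p = 0.0326). The call was lost without any 1 of the 4 libraries of 22 °C and without the Col hybrid library of 27 °C and day 7, with values from -1.31 to -1.08 and adjusted p from 0.12 to 0.647. It was also lost with the filter in all 8 libraries (adjusted p of 0.0717), with library totals entered as a covariate (0.0529) and after thinning (0.474).

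BRI1 was the only one of the 10 whose log2 CPM spanned at least 1.5 across the 8 libraries. Among 15795 genes averaging 5 CPM or more, those whose centred log2 CPM lay nearest to it were AT3G51120 and AT5G40340, with root mean square differences of 0.053 and 0.057 over 8 libraries. Their exon lengths, 4106 and 4015 bases, are close to the 4375 bases of BRI1.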

How the data were processed

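Per the labels, RNA of pooled whole seedlings was sequenced. The authors deposited raw read counts per locus, whole numbers that were not normalised, in 1 table of 33602 loci and 8 libraries. Per the submitters' processing notes, HISAT2, HTSeq 0.6.1p1, StringTie 1.3.5, Picard and FastQC 0.11.5 were used with TAIR10; no settings are given. How reads of C24 alleles mapped, and the strand setting, are not given in the sources used here.

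Loci reaching 0.876 CPM, which is 10 counts at the median total, in at least 4 of the 8 libraries were kept. Counts were scaled by TMM and tested with edgeR 4.0.16 (R 4.3.3, quasi-likelihood F-test, two-sided), with Benjamini-Hochberg adjustment over 19829 genes and a threshold of 0.05. Temperature, age and genotype were fitted together with 4 residual degrees of freedom, and each interaction in a model with 3. The SE is the size of the log2 fold change divided by the square root of F. Plotted counts carry Poisson intervals at 95%. Exon lengths and promoters came from RefSeq's TAIR10.1 annotation, in which 32835 of the loci were found; 142 of the genes tested had no length there and took no length offset. The offset was a lowess curve (span 0.3) of each library's deviation from the gene mean on log10 length.

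The script was tested on simulated data. Alternatives were DESeq2 1.42.0, its size factors in edgeR, other filters, the log2 library total as a covariate, thinning, matched pairs as blocks, each library left out, and the length offset. All 10 genes are named. Of the wider list, up to 5 risen and 5 fallen genes with the smallest p are named for each main effect and up to 3 for each interaction. For genes spanning at least 1.5 on the log2 scale, the nearest patterns are given. The genes and lists were chosen with earlier results of these data known.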

Additional observations from a re-analysis of the deposited data

Results flagged for a closer look

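The temperature difference of TCH4, a gene of the wider pathway list that encodes a cell-wall xyloglucan enzyme, differed between the days by a test of the difference itself. The age by temperature term was -1.20 on the log2 scale (SE 0.22, edgeR adjusted p = 0.0326, over 19829 genes). The difference between 27 °C and 22 °C on day 4 was 0.92 in the pif4 hybrid and 0.93 in the Col hybrid, and on day 7 it was -0.13 in the pif4 hybrid and -0.43 in the Col hybrid. Over the alternatives the term lay between -1.31 and -0.98, and the adjusted p between 0.000776 and 0.647. The call was lost with the filter in all 8 libraries (adjusted p of 0.0717), with library totals entered as a covariate (0.0529) and after thinning to the shallowest depth (0.474). Among the libraries left out in turn, the call held without the Col hybrid library of 27 °C and day 4, without the pif4 hybrid library of 27 °C and day 4 and without that of 27 °C and day 7.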

How the results depend on the processing

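Over 16 alternatives to the fit, the temperature calls of CPD, BRI1 and BZR1 and the age calls of DWF4 and BRI1 held in 16, that of DET2 with temperature in 15 and that of BZR1 with age in 14. The length offset and all alternatives for the wider list were added after seeing the data. With the log2 library total as a covariate, 4800 genes passed for temperature against 7676, 9 pathway genes against 18, and 0 genes for genotype against 1. In that fit BR6OX1 turned to 0.019 with temperature and DWF4 to -0.01 with genotype. After thinning, 3766 genes and 8 pathway genes passed for temperature, 5791 genes for age against 9671, 7 for genotype and 4 for age by temperature against 53. DWF4, DET2 and ROT3 then turned to -0.08, 0.19 and -0.26 with genotype, and DET2 and BR6OX1 to -0.15 and -0.005 with age. For genotype, DESeq2 gave 12 genes, no filter 15, matched pairs as blocks 7 and the length offset 5. For age by temperature no filter gave 294, the filter in all 8 libraries 8 and the length offset 155. Under the length offset DWF4 turned to -0.093 with temperature, and DET2 and HYD1 to -0.219 and -0.023 with age.

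With each library left out in turn, 4246 to 9827 genes and 8 to 24 pathway genes passed for temperature, 0 to 13 genes for genotype, 0 to 1780 for age by temperature and 15 to 74 for genotype by age against 18. For age by temperature 0 to 1 of the 10 genes passed, the 1 being BRI1. Among values short of the threshold, BR6OX1 ranged from -0.119 to 0.034 with temperature and from -0.006 to 0.15 with age. With genotype DWF4 ranged from -0.058 to 0.079, BZR1 from -0.11 to 0.10, ROT3 from -0.056 to 0.073 and BR6OX1 from -0.011 to 0.135. The cause of these shifts was not tested, beyond fewer genes and counts after thinning. The shallowest library limits the low genes most: BR6OX1 rested on 13 counts there and DET2 on 20.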
